A study of Mus musculus with 18 samples.

Results

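The genes described here encode 9 transcription factors of early B cells: Tcf3, Ebf1, Foxo1, Pax5, Ikzf1, Ikzf3, Spib, Irf4 and Bach2. They are 9 of 37252 annotated mouse genes on the autosomes and X, of which 22350 code for protein. For each gene, every peak that overlapped the gene body or lay within 50 kb of it (its neighbourhood) was taken from 14 peak lists, and those within 5 kb of an annotated start are called start peaks. The genes were chosen by name and not by their peaks.

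The lists come from chromatin immunoprecipitation with sequencing (ChIP-seq) in a pro-B cell line transformed by v-Abl, a viral kinase that keeps pro-B cells dividing. The series asks how chromatin loop extrusion serves RAG scanning during rearrangement of the immunoglobulin heavy chain locus. One antibody was against RAD21, which closes the cohesin ring, and the other against NIPBL, which helps to load cohesin and drives its extrusion. All cells were RAG2 deficient, carried the JH deletion and the Emu-Bcl2 transgene, a survival gene under an immunoglobulin enhancer, and expressed dCas9, the catalytically dead form of Cas9. All were kept for 4 days in 3 uM STI-571, an inhibitor of the Abl kinase. The block cells also held the Sg1-sgRNA guide (RAD21, n = 2 and NIPBL, n = 2), and were set against dCas9 control cells without it (RAD21, n = 2 and NIPBL, n = 2). The deleted cells carried Ig2b-del/del (RAD21, n = 3) and were set against cells labelled wild type for Ig2b (RAD21, n = 3). The labels give the Ig2b wild-type and the dCas9 control cells the same genotype. Of 18 samples, 4 were inputs with no peak list and were not analysed here. Nothing in the labels says whether replicates were separate cultures, so p-values measure only the spread between these libraries.

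The number of peaks was 44729 to 82688 in RAD21 lists (11.6 to 34.4 Mb of covered sequence) and 63052 to 123391 in NIPBL lists (20.3 to 29.8 Mb). The read depth behind the lists is unknown. In RAD21, block replicates 1 and 2 covered 23.7 and 31.5 Mb, against 15.9 and 34.4 Mb in control replicates 1 and 2, and the names inside the lists differ in style between replicate 1 and replicate 2. These replicate numbers were therefore treated as possible batches, and values within each stand beside the pooled ones. The dCas9 lists name a control library and the Ig2b lists name none, so covered length was not compared between these sets. As a check of the cell type, 6 to 8 of 8 B lineage markers had a start peak in every library of each group, against 2 to 6 of 9 T cell markers, 3 to 5 of 6 myeloid markers and 2 of 5 erythroid markers. Over protein-coding genes the share was 33.6 to 60.7%. In NIPBL lists, where it was 59.8 to 60.7%, 5 to 6 of 9 T cell and 5 of 6 myeloid markers had one. Cd3e, which encodes a chain of the T cell receptor complex, had no start peak in any group. The T cell markers Lck and Gata3, the myeloid markers Mpo, Elane and Cebpe, and the erythroid marker Klf1 had one in every library.

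Cohesin is loaded onto chromatin with the help of NIPBL and reels in DNA until it is stopped, most often at sites bound by CTCF, where RAD21 then accumulates. NIPBL itself is most often detected at active promoters and enhancers. In B cell development, Tcf3 (E2A) and Ebf1 open the B lineage programme, Foxo1 acts with them, Pax5 commits cells to the lineage, and the Ikaros, ETS, IRF and BACH factors adjust signalling and later steps.

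For each gene, the sequence below is from the region that was present in all 10 RAD21 lists and had the highest mean rank by fold. Such a region is the union of overlapping peaks of the 10 lists. A window in it need not lie under the highest peak of a list. Sequences are from the mm9 reference (NCBIM37), 120 bp each and written 5′ to 3′ on the strand given. The 12 letters CCANNAGNNGGC, the core of the CTCF motif, were searched on both strands, and a match is in capitals. Windows lie around the core nearest the middle of the region, or around the middle where there was none, and outside annotated UTRs.
Tcf3, chr10:79839699-79839818, plus strand, intergenic, downstream: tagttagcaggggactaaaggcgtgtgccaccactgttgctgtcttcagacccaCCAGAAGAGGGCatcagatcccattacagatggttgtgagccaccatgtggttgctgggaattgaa
Ebf1, chr11:44399605-44399724, plus strand, intergenic, upstream: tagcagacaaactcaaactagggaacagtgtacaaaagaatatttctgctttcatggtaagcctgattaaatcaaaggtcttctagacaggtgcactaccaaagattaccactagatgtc
Foxo1, chr3:52047674-52047793, plus strand, intergenic, upstream: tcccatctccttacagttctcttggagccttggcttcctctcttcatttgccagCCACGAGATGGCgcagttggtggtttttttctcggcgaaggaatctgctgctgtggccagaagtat
Pax5, chr4:44685682-44685801, plus strand, intron of Pax5: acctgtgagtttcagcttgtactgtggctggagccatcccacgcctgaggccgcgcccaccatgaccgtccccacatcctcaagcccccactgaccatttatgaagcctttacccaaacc
Ikzf1, chr11:11688543-11688662, minus strand, exon of a Fignl1 transcript, downstream: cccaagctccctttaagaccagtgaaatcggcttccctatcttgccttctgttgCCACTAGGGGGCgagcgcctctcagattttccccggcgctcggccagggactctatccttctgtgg
Ikzf3, chr11:98429794-98429913, minus strand, intergenic, upstream: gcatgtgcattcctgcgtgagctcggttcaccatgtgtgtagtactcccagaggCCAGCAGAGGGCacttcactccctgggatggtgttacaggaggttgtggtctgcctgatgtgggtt
Spib, chr7:51816443-51816562, plus strand, intergenic, upstream: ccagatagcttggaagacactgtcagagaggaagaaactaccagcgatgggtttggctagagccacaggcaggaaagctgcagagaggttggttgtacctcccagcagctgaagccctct
Irf4, chr13:30854327-30854446, minus strand, intron of Irf4: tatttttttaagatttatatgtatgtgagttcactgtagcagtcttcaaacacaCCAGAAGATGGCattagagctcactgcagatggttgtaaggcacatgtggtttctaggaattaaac
Bach2, chr4:32335947-32336066, minus strand, intron of Bach2: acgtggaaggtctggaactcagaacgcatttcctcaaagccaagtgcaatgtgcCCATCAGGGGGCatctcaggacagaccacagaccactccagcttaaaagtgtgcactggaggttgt

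A core was found in the windows of Tcf3, Foxo1, Ikzf1, Ikzf3, Irf4 and Bach2, and in none of those of Ebf1, Pax5 and Spib. Some of these windows lay beside the highest peak of a list. At Tcf3, that peak ended between 79839299 and 79839575 in every Ig2b list, before the window. At Foxo1, it ended between 52046710 and 52046901 in RAD21 control, Ig2b-deleted and Ig2b wild-type replicates 2, also before the window. At Bach2, it ended between 32335573 and 32335739 in RAD21 control replicate 1, Ig2b-deleted replicates 1 and 3 and every Ig2b wild-type list, before the window. It spanned the Bach2 window in Ig2b-deleted replicate 2. In the other lists the highest peak near Tcf3, Foxo1 and Bach2 lay in another region. Around the core, the Tcf3 and Irf4 windows had the same base at 76 of 120 positions (63.3%), and the next most alike pair, Tcf3 and Ikzf3, at 39.2%. These windows were aligned on the core, so its fixed letters match by design. The source of the likeness was not tested. The following windows are from NIPBL start regions of 3 of the genes, shown because NIPBL peaks there stood among the strongest of their lists. They were taken outside annotated exons and hold no CTCF core. The Bach2 region, chr4:32325131-32327378, holds a core that is not in its window. The RAD21 windows were placed around a core where there was one, so RAD21 and NIPBL windows cannot be compared for cores.
Ikzf3, chr11:98406938-98407057, minus strand, start region: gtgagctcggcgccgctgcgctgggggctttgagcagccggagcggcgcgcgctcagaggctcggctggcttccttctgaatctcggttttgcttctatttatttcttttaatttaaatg
Bach2, chr4:32326195-32326314, plus strand, start region: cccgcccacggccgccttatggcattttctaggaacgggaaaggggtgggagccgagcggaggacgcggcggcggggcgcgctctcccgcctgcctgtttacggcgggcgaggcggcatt
Spib, chr7:51786975-51787094, minus strand, start region: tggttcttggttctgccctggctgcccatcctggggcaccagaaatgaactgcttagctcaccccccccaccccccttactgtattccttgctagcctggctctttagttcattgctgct
The Ikzf3 and Bach2 start windows held 11 and 17 CpG dinucleotides and the Spib window 0, against 0 to 6 in the 9 RAD21 windows.

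Nearly all of these genes had start peaks in every list. A start peak was found in every library of the group for 9 of 9 genes in RAD21 block cells and 8 of 9 in RAD21 control cells, where 47.4% and 41.0% of protein-coding genes had one. In RAD21 the count was 9 of 9 in Ig2b-deleted cells and 8 of 9 in Ig2b wild-type cells, beside 37.7% and 33.6% of coding genes. In NIPBL it was 9 of 9 in block and in control cells, beside 60.7% and 59.8%. The exception was Irf4, which lacked a RAD21 start peak in control replicate 1 and in Ig2b wild-type replicate 3. The other 8 genes had a start peak in all 14 lists, as did 24.4% of coding genes. The genes have 1 to 11 annotated starts, and a gene with more starts has more windows in which a peak can fall. With only peaks of -log10 q of at least 3, the count over all 14 lists was 3. The share of coding genes at that threshold was not computed.

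NIPBL and RAD21 differed in how these start peaks ranked. Ranked by the authors' fold within its own list, the highest NIPBL start peak of the 9 genes had a median place in the top 3.63% and 2.83% of the list in block replicates 1 and 2, and in the top 3.25% and 2.34% in control replicates 1 and 2. The median over coding genes with a start peak was the top 11.7%, 7.55%, 9.67% and 12% of the same lists. In each NIPBL list 8 of the 9 genes were in the top 10%, beside 43.5 to 56.3% of coding genes. In RAD21 lists, the median place of the 9 genes lay between the top 21.8% and the top 55.6%, beside 30.1 to 37.2% for coding genes. Not more than 1 of the 9, Bach2, was in the top 10% of a RAD21 list, where 14.1 to 20.3% of coding genes were. Ranks are set side by side as a description, since lists of different length and antibody are not on one scale. Each place is also the best over all annotated starts of a gene, so a gene with more starts can more easily rank high.

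**Figure D1:**
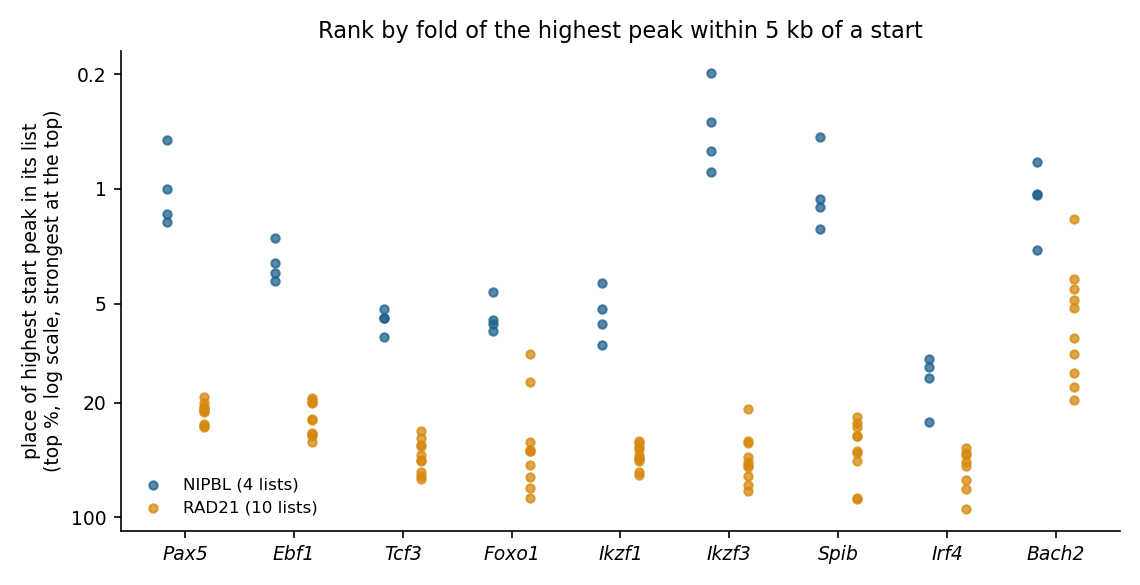
Place, by the authors' fold, of the highest peak within 5 kb of a start in its own list (log axis, strongest at the top), with a point for each NIPBL list on the left and each RAD21 list on the right. NIPBL points lie above RAD21 points for every gene but Bach2, where the 2 sets overlap; Irf4 has 8 RAD21 points because 2 lists held no start peak.

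Tcf3 encodes E2A, the basic helix-loop-helix factor that binds E boxes and starts the B lineage programme (chr10:79872259-79896392, minus strand, with 4 other coding genes in the neighbourhood). Peaks covered 5.66% and 7.67% of the Tcf3 neighbourhood in RAD21 block replicates, and 3.25% and 8.29% in RAD21 control replicates. In NIPBL, they covered 9.26% and 13.9% in block replicates, and 7.58% and 6.54% in control replicates. The NIPBL groups did not overlap, while the RAD21 control replicates enclosed both block values. RAD21 covered 3.87%, 6.15% and 2.55% in Ig2b-deleted replicates 1 to 3, and 2.53%, 3.14% and 1.45% in Ig2b wild-type replicates 1 to 3. The 5 regions found in all 10 RAD21 lists each held a CTCF core, and 3 of them also had NIPBL in both control libraries. The start peak stood in the top 5.36 to 8.00% of the NIPBL lists, and in the top 30.0 to 58.2% of the RAD21 lists.

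Ebf1 encodes early B cell factor, which opens B lineage chromatin together with E2A (chr11:44430819-44821593, plus strand, no other coding gene in the neighbourhood). Peaks covered 1.91% and 6.84% of the Ebf1 neighbourhood in RAD21 block replicates, and 0.886% and 6.86% in RAD21 control replicates. In NIPBL, the values were 1.47% and 1.5% in block replicates, and 0.976% and 0.729% in control replicates. Replicate 2 was high and replicate 1 low in both RAD21 groups, and the NIPBL groups were apart. RAD21 covered 2.88%, 5.32% and 2.18% in Ig2b-deleted replicates, above the 1.74%, 2.12% and 1.26% in Ig2b wild-type replicates. The strongest shared RAD21 region, 31154 bp upstream of the nearest start at chr11:44399324-44400005, had folds of 10.9 to 18.7. It stood on average in the top 1.57% of a list. It held no exact match to the CTCF core and did not have NIPBL in both control libraries. At the other end of the gene, a shared region at chr11:44820988-44822629 had folds of 8.54 to 15.3, a CTCF core and NIPBL. NIPBL regions present in all 4 lists numbered 8, of which 5 lay at an annotated start and 3 also had RAD21.

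Foxo1 encodes a forkhead factor that acts with E2A and Ebf1 and drives transcription of the RAG genes (chr3:52072259-52154031, plus strand, no other coding gene in the neighbourhood). Peaks covered 6.27% and 15.7% of the Foxo1 neighbourhood in RAD21 block replicates, and 4.34% and 16.6% in RAD21 control replicates. RAD21 covered 7.29%, 11.1% and 5.24% in Ig2b-deleted replicates, and 4.33%, 5.36% and 4.07% in Ig2b wild-type replicates. In every RAD21 group the gene had the highest covered share of the 9, and in Ig2b wild-type cells 98.1% of all genes were lower. Of its 11 shared RAD21 regions, 9 lay outside the gene and its start window, 7 held a CTCF core and 3 had NIPBL. The strongest of them was at chr3:52046012-52047981, 25262 bp upstream, with folds of 10.6 to 15.4. NIPBL covered 3.89% and 5.24% in block replicates, and 3.43% and 3.46% in control replicates. Its start held a single broad NIPBL peak of 2795 and 2822 bp in block replicates, and 2551 and 2550 bp in control replicates.

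Pax5 encodes the paired box factor that commits cells to the B lineage (chr4:44544017-44724318, minus strand, 1 other coding gene in the neighbourhood). Peaks covered 4.07% and 7.07% of the Pax5 neighbourhood in RAD21 block replicates, and 1.97% and 8.37% in RAD21 control replicates. RAD21 covered 4.02%, 5.41% and 2.41% in Ig2b-deleted replicates, and 2.54%, 2.85% and 1.64% in Ig2b wild-type replicates. NIPBL covered 3.87% and 4.44% in block replicates, and 3.21% and 2.26% in control replicates. The NIPBL groups were apart and the RAD21 groups overlapped in both sets. At its starts, the highest NIPBL peak stood in the top 1.00% and 0.505% of the list in block replicates, and the top 1.59% and 1.42% in control replicates. Of 10 NIPBL regions present in all 4 lists, 7 were at a start and 7 had RAD21 in all 10 lists, while 2 of the 7 shared RAD21 regions held a CTCF core. A region 45399 bp upstream, in an intron of Zcchc7, had NIPBL in the top 0.861% of a list on average and RAD21 in the top 45.9%.

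Ikzf1 encodes Ikaros, a zinc finger factor needed for lymphoid development (chr11:11585006-11672929, plus strand, 2 other coding genes). Peaks covered 5.26% and 6.38% of the Ikzf1 neighbourhood in RAD21 block replicates, and 2.38% and 7.05% in RAD21 control replicates. RAD21 covered 4.74%, 6.01% and 2.89% in Ig2b-deleted replicates, and 3.38%, 3.24% and 1.90% in Ig2b wild-type replicates. NIPBL covered 2.52% and 3.48% in block replicates, and 2.16% and 1.63% in control replicates. The NIPBL groups were apart, and both pairs of RAD21 groups overlapped. The strongest shared RAD21 region of all 9 neighbourhoods lay downstream of this gene, at chr11:11688167-11689362 in an exon of a Fignl1 transcript, with folds of 11.3 to 23.4 and a mean place in the top 0.898% of a list. It held a CTCF core and did not have NIPBL in both control libraries. Of its 7 shared RAD21 regions, 5 held a core and 2 had NIPBL.

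Ikzf3 encodes Aiolos, the Ikaros relative that rises as pre-B cells mature (chr11:98326216-98407345, minus strand, 5 other coding genes). Peaks covered 2.68% and 8.53% of the Ikzf3 neighbourhood in RAD21 block replicates, and 1.60% and 9.0% in RAD21 control replicates. RAD21 covered 5.34%, 6.42% and 2.61% in Ig2b-deleted replicates, and 2.91%, 3.17% and 1.86% in Ig2b wild-type replicates. NIPBL covered 3.27% and 4.71% in block replicates, and 2.71% and 2.08% in control replicates. Here too the NIPBL groups alone were apart. In 3 of the 4 NIPBL lists the Ikzf3 start peak ranked highest of the 9 genes, in the top 0.585% and 0.195% in block replicates, and 0.792% and 0.390% in control replicates. It was 525 and 623 bp wide in block replicates, and 639 and 550 bp in control replicates, and no region shared by all 10 RAD21 lists overlapped it. The RAD21 start peak stood in the top 21.8 to 69.2% of its lists.

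Spib encodes an ETS factor related to PU.1 (chr7:51781365-51787441, minus strand, 6 other coding genes). Peaks covered 4.51% and 11.8% of the Spib neighbourhood in RAD21 block replicates, and 3.21% and 14.4% in RAD21 control replicates. RAD21 covered 5.13%, 7.95% and 3.55% in Ig2b-deleted replicates, and 3.81%, 3.65% and 2.64% in Ig2b wild-type replicates. NIPBL covered 10.8% and 11.6% in block replicates, and 8.11% and 6.39% in control replicates. The NIPBL block values were both above the control values, while RAD21 values overlapped. This small gene carried the most NIPBL regions present in all 4 lists, 13, of which 5 were at its start, and 6 had RAD21 in all 10 lists. Its neighbourhood is also the one with the most other coding genes, and the part of those genes in its coverage was not tested. The strongest shared RAD21 region, at chr7:51816154-51816852 and 29062 bp upstream, had folds of 8.49 to 16.3 and no core.

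Irf4 encodes an interferon regulatory factor that binds DNA with PU.1 or Spi-B in pre-B cells (chr13:30841095-30858796, plus strand, 2 other coding genes). Peaks covered 1.33% and 7.18% of the Irf4 neighbourhood in RAD21 block replicates, and 0.165% and 7.11% in RAD21 control replicates. RAD21 covered 1.72%, 2.89% and 0.480% in Ig2b-deleted replicates, and 1.43%, 1.96% and 0.303% in Ig2b wild-type replicates. NIPBL covered 0.802% and 1.52% in block replicates, and 1.06% and 0.568% in control replicates. All of these groups overlapped. Irf4 had 1 shared RAD21 region, in an intron at chr13:30854034-30854815, with a CTCF core and folds of 3.48 to 6.39. That region did not have NIPBL in both control libraries. The NIPBL start peak of Irf4 was the lowest of the 9, in the top 14.2% and 26.2% of the list in block replicates, and the top 10.9% and 12.1% in control replicates.

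Bach2 encodes a BTB and leucine zipper repressor that acts at the pre-B cell receptor checkpoint (chr4:32325779-32673083, plus strand, 3 other coding genes). Peaks covered 2.40% and 1.98% of the Bach2 neighbourhood in RAD21 block replicates, and 1.37% and 3.23% in RAD21 control replicates. RAD21 covered 1.83%, 2.53% and 1.22% in Ig2b-deleted replicates, and 0.918%, 1.26% and 0.752% in Ig2b wild-type replicates. NIPBL covered 1.35% and 1.33% in block replicates, and 1.48% and 1.13% in control replicates. All of these groups overlapped, and replicate 2 was not the higher RAD21 library in block cells. The Bach2 start peak ranked highest of the 9 genes in 8 of the 10 RAD21 lists, and stood in the top 1.53 to 19.2% of all 10. In control replicate 2 it stood below those of Foxo1 (15.1%) and Ebf1 (18.8%), and in Ig2b-deleted replicate 2 below that of Foxo1 (10.2%, against 13.3% for Bach2). That peak lay in the first part of the gene at chr4:32333683-32338486 in 7 lists, and near a later start at chr4:32658725-32659573 in the other 3. All 5 shared RAD21 regions held a CTCF core, and 3 of them lay at annotated starts. At the first start, NIPBL formed a broad peak of 2150 and 2248 bp in block replicates, and 2205 and 2018 bp in control replicates.

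**Figure D2:**
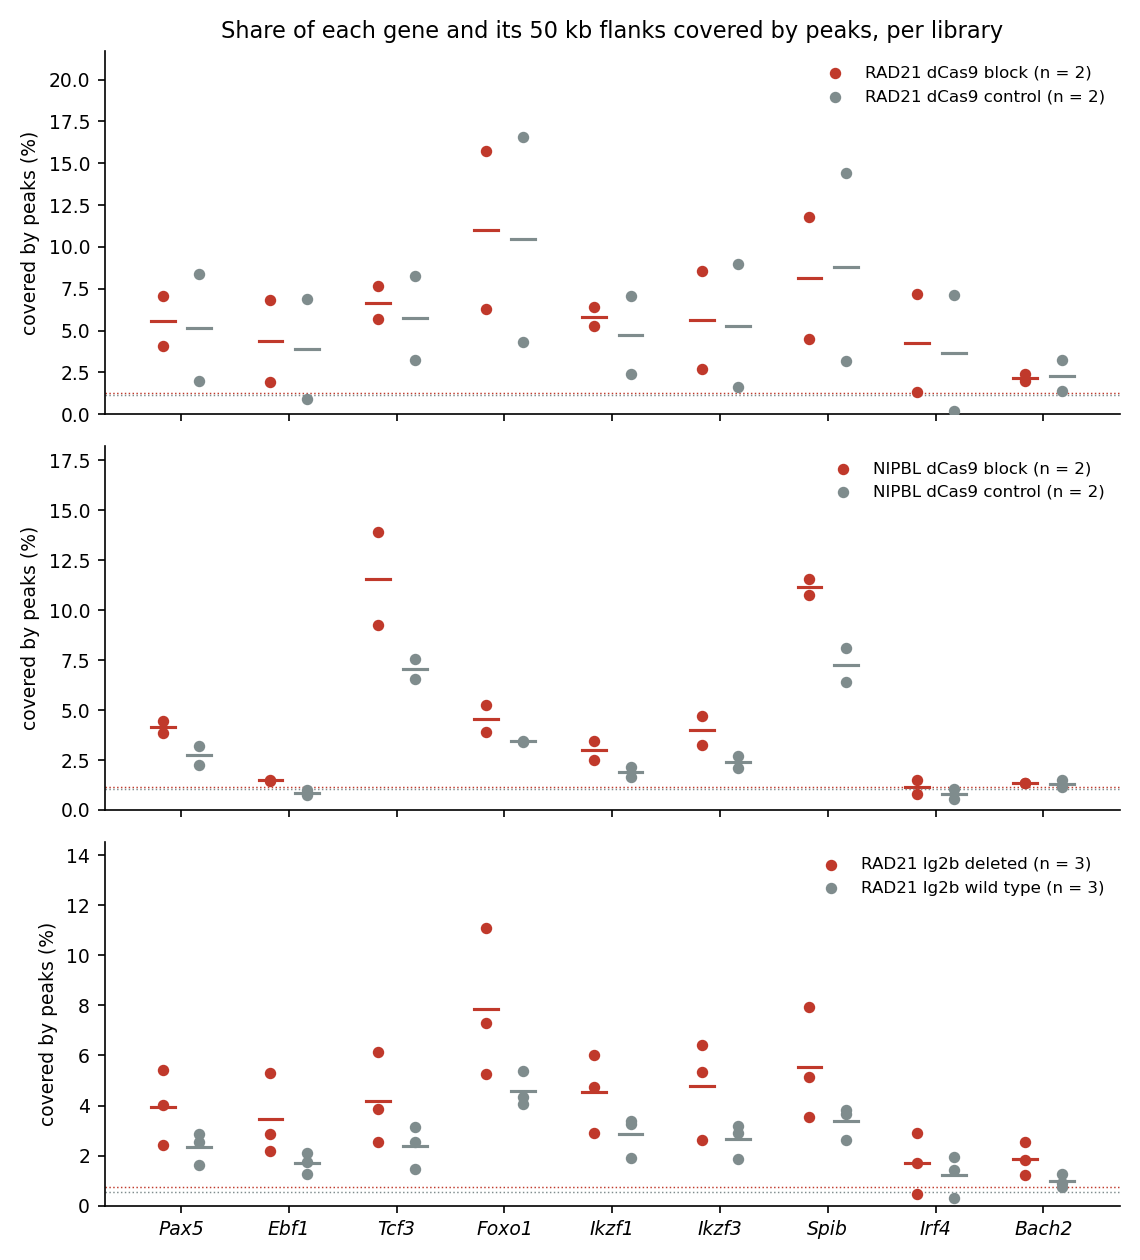
Share of each neighbourhood covered by peaks (%), with a point per library and a short bar for the group mean; block or deleted is left of its control or wild type, and dotted lines mark the median over all genes in the same color. Foxo1 and Spib stand highest in RAD21 panels and Tcf3 and Spib in the NIPBL panel, and the RAD21 dCas9 points of most genes are split by replicate number.

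The order of the genes by covered share differed between RAD21 in Ig2b wild-type cells and NIPBL in dCas9 control cells. These sets differ in cells and in peak calling as well as in protein. In RAD21 dCas9 control cells the order by mean was Foxo1, Spib, Tcf3, Ikzf3, Pax5, Ikzf1, Ebf1, Irf4 and Bach2. There the SD was 1.32 (Bach2) to 8.64 (Foxo1), with n = 2. In RAD21 Ig2b wild-type cells the means were 4.59 ± 0.683% for Foxo1, 3.37 ± 0.634% for Spib, 2.84 ± 0.817% for Ikzf1, 2.65 ± 0.694% for Ikzf3 and 2.37 ± 0.854% for Tcf3 (SD, n = 3). They were 2.34 ± 0.631% for Pax5, 1.71 ± 0.430% for Ebf1, 1.23 ± 0.845% for Irf4 and 0.976 ± 0.258% for Bach2 (SD, n = 3). The ranges of Foxo1 and Spib were apart, and those of all other neighbours in this order overlapped over the libraries. Within each library the neighbours kept this order, except Tcf3 and Pax5, and Irf4 and Bach2. With 20 kb on each side in place of 50 kb, Spib stood above Foxo1. In NIPBL control cells the means were 7.25 ± 1.21% for Spib, 7.06 ± 0.734% for Tcf3, 3.44 ± 0.0241% for Foxo1, 2.74 ± 0.669% for Pax5 and 2.40 ± 0.447% for Ikzf3 (SD, n = 2). They were 1.89 ± 0.380% for Ikzf1, 1.30 ± 0.250% for Bach2, 0.853 ± 0.175% for Ebf1 and 0.814 ± 0.348% for Irf4 (SD, n = 2). Here the ranges of Spib and Tcf3, Pax5 and Ikzf3, Ikzf3 and Ikzf1, and Ebf1 and Irf4 overlapped, and those of the other neighbours were apart. Within each library the order held except between Spib and Tcf3, and between Ebf1 and Irf4. The medians over all genes were 0.547% in RAD21 Ig2b wild-type cells and 1.03% in NIPBL control cells. All 9 genes were above that median in the first set, and 7 of 9, all but Ebf1 and Irf4, in the second.

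Regions shared by every list showed what the neighbourhoods had in common. The 9 neighbourhoods held 56 of the 25633 regions present in all 10 RAD21 lists, 13 at a start, 11 in a gene body and 32 outside. Their density was 6.60 per 100 kb at Spib, 6.05 at Foxo1, 4.03 at Tcf3, 3.72 at Ikzf1, 3.31 at Ikzf3, 2.50 at Pax5, 1.43 at Ebf1, 1.12 at Bach2 and 0.850 at Irf4, beside 0.971 over the genome. NIPBL in both control libraries overlapped 22 of the 56 (39.3%), beside 17.9% of all such regions. The median width was 995 bp near the genes and 668 bp over the genome, and wider regions can overlap other peaks more easily. Near any annotated start lay 51.8% of the 56 and 35.4% of all. The CTCF core was found within 32 of the 56 regions (57.1%, beside 43.3% of all), and within the middle 400 bp, where all windows are of one length, in 37.5%, beside 36.4% of all.

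The share of regions with a core depended on how much of each region was searched. Over whole regions the core was found in 50.0% of the 22 regions with NIPBL and in 61.8% of the 34 without, beside 30.0% and 46.1% of all such regions of the genome. The regions with NIPBL were wider, with a median of 2702.5 bp against 697 bp without. In the middle 400 bp, which is a smaller part of a wide region, the core was found in 13.6% of the 22 regions with NIPBL and in 52.9% of the 34 without, beside 15.3% and 41.1% of all. Of the 22 regions with NIPBL, 81.8% lay near an annotated start, as did 32.4% of the 34 without. Of 69 NIPBL regions present in all 4 lists, 31 were at a start of the genes, and 31 had RAD21 in all 10 lists (44.9%, beside 20.2% of 23776 over the genome). The core was in 11.6% of the 69, beside 7.82% of all. The motif TCCCNNGGGA, an EBF site, was in the middle 400 bp of 1.79% of the 56 RAD21 regions and 1.45% of the 69 NIPBL regions, beside 1.27% and 1.82% of all. The E box CACCTG was in 33.9% and 44.9%, beside 30.1% and 36.6% of all. These are matches of letters on either strand, and the E box can share bases with the CTCF core.

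**Figure D3:**
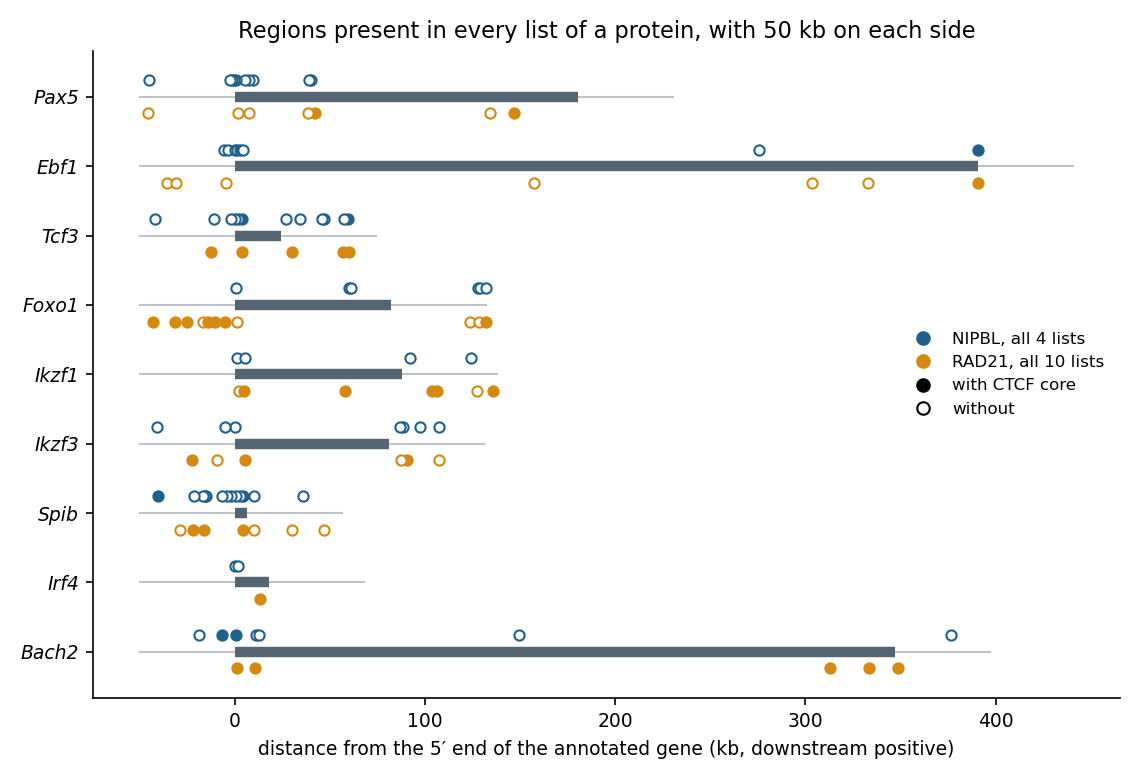
Regions found in all 4 NIPBL lists (above each line) and in all 10 RAD21 lists (below), by distance from the 5′ end of the gene in kb, with the gene body as a thick bar and 50 kb of flank on each side; filled circles hold the CTCF core anywhere in the region. Of 69 NIPBL circles, 31 lie within 5 kb of an annotated start and 8 are filled, while 32 of 56 RAD21 circles are filled and many lie outside the bodies, as upstream of Foxo1.

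The Sg1-sgRNA block was then compared with dCas9 control cells for RAD21. Each gene has 1 value per library, log2(covered bp + 500), and the difference is block minus control. All 9 differences were positive, between 0.05 for Bach2 and 0.79 for Irf4, with a median of 0.31, beside a median of 0.16 over 26222 genes of which 81.6% were positive. These are differences of mean log2 values: mean covered length itself was lower in block cells at Spib (8629 bp, against 9357 bp in control cells) and at Bach2 (9808 bp, against 10271 bp). None of the 9 passed limma's test at an adjusted p under 0.05 (0 of 26222 genes, 0%, passed, and 1 gene had an unadjusted p under 0.05, 0.00381%). Every member had an adjusted p of 1.0, with SE of 0.57 (Bach2) to 1.26 (Irf4). The block and control libraries overlapped at all 9 genes, while 7.42% of genes had both block libraries above both controls and 0.778% had both below.

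The pooled RAD21 difference held differences of unlike sign by replicate number. Within replicate 1 the block library was higher at all 9 genes, by 0.44 at Spib to 1.58 at Irf4 (median of all genes 0.42). Within replicate 2 the differences ran between -0.67 at Bach2 and 0.01 at Irf4 (median of all genes -0.11). Control replicate 1 was the low library: control replicate 2 had 2.26 (Bach2) to 12.8 (Irf4) times its covered length, beside a median of 1.89 over all genes. Without control replicate 1, all 9 differences were negative, from -0.27 at Ikzf1 to -1.04 at Irf4. The part of list size in these differences was not tested beyond the lists matched in length below.

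Few RAD21 regions near the genes were gained or lost in block cells. Of 380 regions in the 9 neighbourhoods, 3 were in both block libraries and in no control library (1.15% of all regions were), and 0 the reverse (0.278%). Together these were 0.789% of the regions near the genes, beside 1.43% of all regions. A region of 229 bp in an intron of Ebf1, at chr11:44707722-44707950, had folds of 3.91 to 3.95 in block cells and a peak in no other list. A region of 154 bp downstream of Ebf1, at chr11:44870792-44870945, had folds of 3.14 to 3.24 in block cells and a peak in 1 Ig2b-deleted library. A region of 84 bp in an intron of Ikzf1, at chr11:11591111-11591194 near a start, had folds of 3.24 to 3.32 and a peak in 1 Ig2b-deleted and 1 Ig2b wild-type library. All 3 were short and low beside the shared regions. No member gained or lost its start peaks (0.486% of all genes did).

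For NIPBL, block libraries had more covered length than control libraries at most of the genes. Both block libraries lay above both control libraries at 7 of the 9 genes, all but Irf4 and Bach2, beside 39.2% of 27624 genes, and below at none of the 9, beside 5.56%. The log2 differences ran between 0.05 at Bach2 and 0.75 at Ebf1, with a median of 0.59, beside a median of 0.22 over all genes of which 74.3% were positive. Ebf1 averaged 7301 covered bp in block cells and 4184 in control cells, a difference of 0.75 (SE 0.27). Its unadjusted limma p was 0.0244 and its adjusted p 0.618 over all genes. Tcf3 averaged 14369 bp in block cells and 8764 bp in control cells (0.66, SE 0.29, limma adjusted p 0.618). None of the 9 passed the test, as 0 of 27624 genes did (0%), while 1967 genes (7.12%) had an unadjusted limma p under 0.05.

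The size of the NIPBL difference also moved with replicate number. Within replicate 1 it ran between -0.27 at Irf4 and 0.55 at Ebf1, with a median of -0.02 over all genes. Within replicate 2 it ran between 0.22 at Bach2 and 1.08 at Ikzf3, with a median of 0.46. The lists covered 20.3 and 29.8 Mb in block replicates 1 and 2, and 22.5 and 21.6 Mb in control replicates 1 and 2. Without block replicate 1, 45 genes of the genome were called, all higher in block cells. Without block replicate 2, 406 genes were called, 24 higher and 382 lower in block cells. None of the 9 was among them in either case.

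Of 426 regions near the genes, 23 were in both NIPBL block libraries and neither control (2.48% of all regions were), and 8 were the reverse (1.65%). Together these were 7.28% of the regions near the genes, beside 4.13% of all regions. The widest gain, by mean covered length, was 356.5 bp at chr10:79934492-79934913, 38311 bp upstream of Tcf3, where no RAD21 list had a peak. A gain of 260.0 bp at chr4:44721976-44722282, near a start of Pax5, and one of 255.5 bp at chr4:32335150-32335518, near a start of Bach2, lay where all 10 RAD21 lists had a peak. A gain of 253.5 bp at chr7:51805120-51805479, 17859 bp upstream of Spib in an exon of Nr1h2, had no RAD21 peak. A loss of 253.5 bp at chr4:32443608-32444023, in an intron of Bach2, was present in both control libraries and also had no RAD21 peak in any list. The folds of the 5 lay between 2.69 and 4.62. No member gained or lost its NIPBL start peaks (2.83% of all genes did).

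In RAD21 lists of Ig2b-deleted cells against Ig2b wild-type cells, the covered length was higher at all 9 genes without passing the test. Whole lists covered 18.2, 25.1 and 11.9 Mb in deleted replicates 1 to 3, and 14.2, 15.2 and 11.6 Mb in wild-type replicates 1 to 3. The part of list size in the differences was not tested beyond the lists matched in length below. The log2 differences ran between 0.33 at Irf4 and 0.91 at Ebf1, with a median of 0.69, beside a median of 0.31 over 22540 genes of which 92.6% were positive. Ebf1 averaged 16973 bp in deleted cells and 8390 bp in wild-type cells (0.91, SE 0.34, limma unadjusted p 0.0217, adjusted p 0.545). It was the 1 gene of the 9 at which every deleted library was above every wild-type library (10.9% of all genes), and none was below (0.373%). Bach2 averaged 8313 bp in deleted cells and 4365 bp in wild-type cells (0.83, SE 0.31, limma unadjusted p 0.0206, adjusted p 0.545). Foxo1 averaged 14300 bp in deleted cells and 8344 bp in wild-type cells (0.69, SE 0.30, limma unadjusted p 0.0403, adjusted p 0.545). None of the 9, and 0 of 22540 genes (0%), passed an adjusted p under 0.05, and 1649 genes (7.32%) had an unadjusted limma p under 0.05.

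Within each replicate number every gene was higher in the deleted library, though no pairing by number is stated. Deviations of same-numbered libraries correlated at only 0.0256, 0.191 and 0.254, and other matchings of these libraries would give other differences. By number, the difference was 0.21 to 0.92 in replicate 1, 0.48 to 1.28 in replicate 2 and 0.31 to 0.74 in replicate 3. The medians over all genes were 0.28, 0.56 and 0.10. Among the fits with a library left out, only that without deleted replicate 3 called any gene. Without deleted replicate 3, which had the shortest list, 3979 of 22860 genes were called, 3968 of them higher, and 8 of the 9 passed. These were all but Irf4, with differences of 0.85 to 1.18 and limma adjusted p of 0.0355 to 0.0477. With only peaks of -log10 q of at least 3, 50 of 18087 genes passed, Ebf1 among them (1.13, SE 0.14, limma adjusted p 0.032).

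Of 341 regions near the genes, 2 were in all 3 deleted libraries and in no wild-type library (0.931% of all regions were), and 0 the reverse (0.191%). Together these were 0.587% of the regions near the genes, beside 1.12% of all regions. In an intron of Ebf1, chr11:44715301-44715617 had folds of 3.34 to 3.92 in deleted cells, and also a peak in 1 block and 1 control library of RAD21 dCas9 cells and in 1 NIPBL control library. In an intron of Bach2, chr4:32661648-32661876 had folds of 3.38 to 4.09 in deleted cells and a peak in all 4 RAD21 dCas9 libraries. No member gained or lost its start peaks (0.491% of all genes did).

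NIPBL and RAD21 were compared in dCas9 control cells, whose libraries also serve as controls above. The log2 difference, NIPBL minus RAD21, was negative for 7 of the 9 genes and positive for Tcf3 (0.40) and Spib (0.05, though mean covered length was 7688 bp in NIPBL and 9357 bp in RAD21), with a median of -0.66 beside -0.05 over 27994 genes. It was -1.47 (SE 0.78) at Ebf1, with 4184 bp in NIPBL and 19004 bp in RAD21. At Foxo1 it was -1.24 (SE 0.64) and at Ikzf1 -1.04 (SE 0.60), and these were the genes with both NIPBL libraries below both RAD21 libraries (25.2% of all genes); 22.4% of all genes had both above. None of the 9 passed limma's test, with adjusted p of 0.32 to 0.982, while 656 genes did (2.34%) and 19.8% had an unadjusted p under 0.05. Of the 656, 417 were higher and 239 lower in NIPBL, and with lists cut to one length 602 were higher and 714 lower. Within replicate 2 all 9 differences were negative, from -0.32 at Tcf3 to -3.07 at Ebf1. Within replicate 1 they ran between -0.32 at Foxo1 and 1.33 at Irf4. Without RAD21 control replicate 1, the differences of 8 of the 9, all but Tcf3, ran from -0.96 at Spib to -2.88 at Ebf1. The median over all genes was then -0.507. Without RAD21 control replicate 2, the differences were 1.03 at Tcf3, 1.06 at Spib and 1.04 at Irf4, beside a median of 0.481 over all genes. With the replicate numbers crossed between the proteins as a block, a pairing chosen after seeing the data, 4303 of 27994 genes passed. Ebf1 was among them (-1.47, SE 0.52, limma adjusted p 0.0361).

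**Figure D4:**
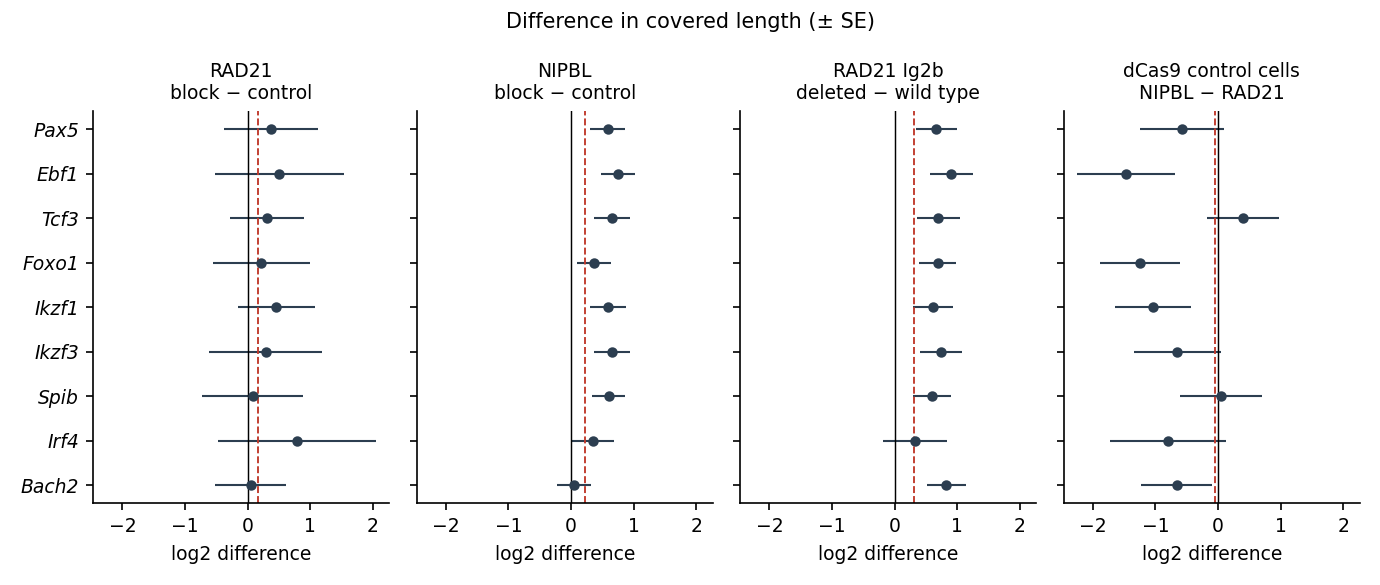
Difference in log2(covered bp + 500) for each gene with its SE in the 4 comparisons named above the panels, with a solid line at 0 and a dashed line at the median of all genes. The 9 points are positive in the first 3 panels and run between -1.47 and 0.40 in the last; none passed the adjusted threshold.

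Related genes gave a frame for these values. The other members of the gene families (15 tested of 16 in RAD21 block cells against control cells), 14 other regulators of the B lineage and 15 known targets of the factors had 0 genes called in any of the 4 comparisons. For NIPBL block minus control, the median difference was 0.34 over 15 paralogs, 0.44 over the other regulators and 0.61 over the targets, against 0.59 for the 9 genes. For RAD21 Ig2b deleted minus wild type, it was 0.51 over 12 paralogs, 0.48 over the other regulators and 0.65 over the targets, against 0.69 for the 9 genes. The B lineage markers had medians of 0.65 and 0.64 in these comparisons. The T cell markers had medians of 0.29 and 0.35, the myeloid markers 0.54 and 0.16, and the erythroid markers 0.18 and 0.11. For RAD21 block minus control, medians were 0.09, 0.35 and 0.25 for paralogs, other regulators and targets, and 0.25, 0.13, 0.11 and 0.13 for the B lineage, T cell, myeloid and erythroid markers.

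Among paralogs, Irf8 and Spi1 had the highest covered shares in control cells. In NIPBL control cells, the highest paralogs were Irf8 at 6.02 ± 3.26%, Spi1, which encodes PU.1, at 2.90 ± 0.449%, and Ikzf5 at 2.57 ± 0.326% (SD, n = 2). The lowest were Pax2 at 0.363 ± 0.206%, Ikzf2, which encodes Helios, at 0.279 ± 0.0958%, and Ebf2 at 0.129 ± 0.0243%. In RAD21 control cells, Irf8 was at 11.3 ± 8.96% and Spi1 at 5.43 ± 2.99%, while Ebf3 was at 0.323 ± 0.198% and Ikzf2 had no covered base in either library. Of the targets, Cd72 had 6.18 ± 1.57% in NIPBL and 8.62 ± 6.14% in RAD21, and Il7r, the interleukin 7 receptor, led the targets with 10.1 ± 11.2% in RAD21. Syk, a kinase of the pre-B cell receptor, was lowest of the targets with 0.985 ± 0.107% in NIPBL and 2.72 ± 2.26% in RAD21.

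Likeness was measured as Pearson's r over the 14 libraries of log2(covered bp + 500) less each library's median. It was taken among 26167 genes averaging at least 500 covered bp, leaving out those within 1 Mb of the member. The libraries share groups and 2 antibodies, so r is a description and has no p. The most alike gene was N4bp2 for Ebf1 (r = 0.985), Sumf1 for Foxo1 (0.979), 2310033E01Rik for Spib (0.977), Clec16a for Ikzf1 (0.973) and Tmem131 for Ikzf3 (0.965). It was Baiap3 for Tcf3 (0.963), Nup210l for Pax5 (0.963), Tpd52 for Irf4 (0.934) and 4930557C09Rik for Bach2 (0.930). The 99th percentile over all genes was 0.767 to 0.933 for the 9 genes.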

How the data were processed

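Peak lists of 14 libraries were used, 10 of RAD21 and 4 of NIPBL. Per the labels' protocols, cells were fixed with 1% formaldehyde and precipitated with 5 ug of antibody. Reads were handled with Bowtie2 2.2.8, SAMtools 1.8 and MACS2 on mm9, per the submitters' processing notes. The deposited lists give for each peak a score, a fold enrichment (a ratio, in column 7) and a p and a q value on the -log10 scale, as the authors' peak caller wrote them. These are each peak's own values and were used only to rank or filter peaks within a list. Peaks were called per library, and per the names inside the lists the Ig2b libraries had duplicates removed. Depths are not given in the sources used here, so no value carries a counting interval.

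Per gene and library, the union of peaks within the gene body and 50 kb on each side was summed in bp, from the NCBIM37 annotation of mm9. The test took genes averaging at least 500 bp in the libraries of that comparison, as log2(covered bp + 500), with limma 3.58.1 (R 4.3.3), two-sided, without normalization between lists and with Benjamini-Hochberg adjustment over all genes tested; a call is an adjusted p under 0.05. The fold change on this scale understates the change of genes with little coverage. On simulated data, 200 genes were changed by 2 on the log2 scale. The fit recovered 200 of 200 with 12 false calls (RAD21 block against control, 26222 genes). It recovered 200 of 200 with 9 false calls (RAD21 Ig2b deleted against wild type, 22540 genes). The simulated noise had the same SD at every gene, the median SD between the Ig2b wild-type libraries. Differences of the 9 genes were smaller, 0.05 to 0.79 and 0.33 to 0.91, and their SE in RAD21 block against control was 0.57 to 1.26. The recovery therefore checks the code and does not measure the power of these comparisons. Regions are peaks merged where they overlap by 1 bp; gained means present in every library of the first group and in none of the second. Rank and share values were computed in Python 3.11.15.

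All 9 genes are named in every comparison. Gained or lost regions are all named where there were 10 or fewer, and otherwise the 5 with the largest mean covered bp. Sequence windows show, per gene, the region shared by all 10 RAD21 lists with the best mean rank, and up to 3 NIPBL start regions, taken outside exons. Of the other lists, genes are named from the 3 highest and 3 lowest by covered share in control cells. The members, the lists of paralogs, regulators, targets and markers, and the tests were chosen with earlier results of these data known. Alternatives changed the peak threshold, list length, overlap, neighbourhood, start window, bp added, filter, samples in the fit, replicate block and libraries. The 4 inputs were left out for want of a peak list.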

Additional observations from a re-analysis of the deposited data

How the results depend on the processing

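Read depth is unknown, lists differ in size, and 2 or 3 libraries a group limit every difference. With a -log10 q of at least 3, the genes with start peaks in every library were counted again. There were 5 of 9 in RAD21 block cells and 5 in RAD21 control cells. In RAD21 Ig2b wild-type cells there were 3, and over all 14 lists 3. No share of coding genes was computed at this threshold. The same threshold left 31 shared RAD21 regions, 8 of them with NIPBL, and an overlap of 50% left 4 and 0; NIPBL in either control library gave 31 in place of 22. The 6 Ig2b libraries alone gave 79 shared regions and the 4 dCas9 libraries alone 84, settings chosen after seeing the data. In the order of covered share, also tested after seeing the data, 4 of 9 genes kept their place in RAD21 Ig2b wild-type cells with the stricter threshold and 2 with 20 kb flanks; in NIPBL control cells 5 did with the stricter threshold and 6 with 20 kb flanks.

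Regions gained or lost near the genes numbered 1 with the stricter threshold and 5 with lists of equal length for RAD21 block, 4 with the stricter threshold for NIPBL block, and 9 with 50% overlap for Ig2b deleted. Leaving out 1 library gave 32 to 73, 79 to 144 and 2 to 17 in these comparisons, since fewer libraries must then lack or hold a peak. Starts gained or lost were 0 to 1, the 1 being Irf4 in RAD21 block without control replicate 2. Genes called in Ig2b deleted against wild type were 50 with the stricter threshold, all higher in deleted cells, 67 with lists of equal length, of which 10 were higher and 57 lower, 3 with 100 bp added, and 0 to 3979 with a library left out. For NIPBL block they were 0 to 406 with a library left out. For NIPBL against RAD21, in place of 656, they were 63 with the stricter threshold, 1316 with lists of equal length, 3565 with 100 bp added, 0 without the filter, 180 with 20 kb flanks, and 0 to 12487 with a library left out. The cause was not tested.

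Under the stricter threshold the RAD21 block difference turned to -0.01 at Tcf3, -0.05 at Spib, -0.28 at Irf4 and -0.04 at Bach2, with lists of equal length to -0.21 at Bach2, and the NIPBL minus RAD21 difference to -0.54 at Tcf3 and -0.28 at Spib. Irf4 did not pass the filter under the stricter threshold in NIPBL block and Ig2b deleted. With a library left out, the RAD21 block difference ran from -0.62 to 1.37 at Pax5, -0.90 to 1.92 at Ebf1, -0.31 to 0.94 at Tcf3, -0.72 to 1.15 at Foxo1, -0.27 to 1.19 at Ikzf1, -0.86 to 1.44 at Ikzf3, -0.93 to 1.08 at Spib, -1.04 to 2.63 at Irf4 and -0.54 to 0.64 at Bach2. It ran from -0.13 to 0.23 at Bach2 in NIPBL block and -0.18 to 0.85 at Irf4 in Ig2b deleted. For NIPBL minus RAD21 it ran from -1.57 to 0.42 at Pax5, -0.22 to 1.03 at Tcf3, -1.80 to 0.50 at Ikzf3, -0.96 to 1.06 at Spib and -2.63 to 1.04 at Irf4. Where 1 library was left in a group, its spread was taken from the other group.

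The replicate numbers are shared without a stated pairing. Deviations of same-numbered libraries correlated at 0.831 across genes in RAD21 block and control, 0.135 in NIPBL block and control, 0.0256, 0.191 and 0.254 in Ig2b, and -0.158 in NIPBL against RAD21. With the replicate block 0 genes were called in the first 3 comparisons and 1098 in NIPBL against RAD21; crossing the numbers there, a pairing added after seeing the data, gave 4303, Ebf1 among them.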
